A study of Homo sapiens with 8 samples.

Results

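The genes described here are 10 genes of the core pluripotency programme of human embryonic stem cells: POU5F1, NANOG, SOX2, LIN28A, LIN28B, DPPA4, SALL4, L1TD1, ZSCAN10 and TERF1. They were picked by gene symbol from a fixed list. All 10 were found among 14070 genes of the day 0 table, and 9 were found among 11644 genes of the day 2 table. SOX2 was not analysed here at day 2. RNA was sequenced from H1, a widely used line of human embryonic stem cells kept in mTeSR medium, as SETD7 knockout (KO) cells and as wild-type (WT) cells. SETD7 encodes a lysine methyltransferase, and the study asks about its place in the formation of mesoderm. Both genotypes were taken at day 0 and at day 2 of induced hematopoietic differentiation. Day 0 had 1 KO library and 1 WT library, and day 2 had 3 KO libraries and 3 WT libraries. The labels do not say whether the KO cells are 1 clone or whether the day 2 libraries came from separate cultures, so p-values measure the spread between these libraries, which may be technical.

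POU5F1 (also called OCT4), SOX2 and NANOG encode transcription factors that bind together at many enhancers in pluripotent cells, including those of their own genes, and hold the undifferentiated state. In human embryonic stem cells NANOG depends on Activin and Nodal signalling, and it can persist in the primitive streak, the source of mesoderm and endoderm. Around them stand factors that act on RNA, on chromatin and on telomeres. LIN28A and LIN28B block the maturation of let-7 microRNAs, and let-7 in turn represses both LIN28 genes.

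The promoter of NANOG is shown because NANOG was the gene of the set whose RNA differed between the genotypes at day 2. It runs from 250 bases before to 50 bases after the RefSeq start of transcription (build GRCh38.p14, plus strand), and the capitals mark a SOX motif and an octamer motif side by side, read here from the opposite strand.

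NANOG promoter, chr12:7789152-7789451 (+): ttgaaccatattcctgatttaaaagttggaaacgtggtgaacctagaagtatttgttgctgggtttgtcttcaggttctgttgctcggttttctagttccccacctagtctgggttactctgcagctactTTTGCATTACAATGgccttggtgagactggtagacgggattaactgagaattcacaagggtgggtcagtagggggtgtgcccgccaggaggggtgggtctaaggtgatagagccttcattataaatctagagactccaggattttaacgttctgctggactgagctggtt

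The motifs searched, on both strands, were the octamer ATGCAAA, the SOX motif CATTGT, and the composite CATTGTNATGCAAA, which contains both of the shorter motifs. In the NANOG promoter the composite lay at positions -120 to -107 from the start. POU5F1 and SOX2 proteins are known to bind such a composite in the NANOG promoter as a pair. The composite was present in 3 of 35116 RefSeq promoters of the same length, or 0.00854%. Promoter sequences of 6 of the 10 genes were searched here, namely NANOG, SOX2, LIN28B with a pair of starts, DPPA4, L1TD1 and ZSCAN10. The octamer alone was also found in the SOX2 promoter, at -100 to -94, against 4.46% of all promoters. The SOX motif alone was found in the first LIN28B promoter, at -140 to -135, against 10.8% of all promoters. A match of letters is a description and does not show that a factor was bound in these cells.

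The let-7 microRNAs and the stretches of the LIN28A and LIN28B 3′ untranslated regions that match them are shown because these pairs are the known link between the LIN28 genes and let-7. Capitals mark the seed, bases 2 to 8, in each microRNA. In the target sites they mark the 7 letters CTACCTC, the reverse complement of that seed. RefSeq held 12 mature entries under 9 names in this family, and all 9 names had the same seed. The sites were read from GENCODE 29 transcripts (GRCh38).

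let-7a-5p: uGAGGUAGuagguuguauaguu
let-7g-5p: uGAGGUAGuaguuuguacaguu
LIN28A site 1, chr1:26427347-26427376 (+): tgcacagcctattgaaCTACCTCatttttg
LIN28B site 1, chr6:105078811-105078840 (+): tacccggttgcaaagtCTACCTCatgcaag
LIN28B site 2, chr6:105081238-105081267 (+): gtactgatgatagtaaCTACCTCtgagttt
LIN28B site 3, chr6:105081420-105081449 (+): tgtttacagcaaaaggCTACCTCatagttg
LIN28B site 4, chr6:105082859-105082888 (+): aaaatgatggtgttgaCTACCTCttgaatc

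LIN28A held 1 such site, LIN28B held 4 and SALL4 held 1, so 3 of the 9 genes measured at day 2 held at least 1. Among 11162 genes tested at day 2 with an annotated 3′ untranslated region, 12.4% held at least 1. The levels of the microRNAs themselves were not measured.

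SETD7 itself was lower in the KO libraries on both days. At day 2 it stood at 32.9, 28.9 and 33.7 CPM (read counts scaled to library size with TMM factors) in KO libraries, against 54.8, 56.2 and 55.6 CPM in WT libraries. The genotypes did not overlap, and the log2 fold change was -0.80 (SE 0.058, edgeR adjusted p = 9.51e-13). At day 0 SETD7 stood at 1.48 FPKM in the KO library and 3.53 FPKM in the WT library. SETD7 RNA was therefore reduced and not absent, and the labels do not say which part of the gene was removed. Total counts per day 2 library ranged between 29647943 and 39553614 in KO cells and between 27880068 and 32230627 in WT cells. The genotypes stood apart on the leading axis of a principal component analysis at day 2 (49.7% of variance).

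At day 2, NANOG (chr12:7787794-7799141, plus strand, GRCh38) was the 1 gene of the 9 that passed the test, and it was lower in KO cells. In KO libraries NANOG stood at 5.12, 4.52 and 5.78 CPM, against 7.27, 7.76 and 7.86 CPM in WT libraries. Every KO library lay below every WT library. NANOG averaged 5.14 ± 0.629 CPM in KO cells and 7.63 ± 0.316 CPM in WT cells (SD, n = 3 each). This is a log2 fold change of -0.57 (SE 0.131, 95% interval -0.84 to -0.31), or 0.671 of the WT level, with an edgeR adjusted p of 0.00127. The raw counts behind it were 205, 158 and 172 in KO libraries and 201, 249 and 237 in WT libraries. In bulk RNA, fewer cells that express a gene and less RNA per cell cannot be told apart. NANOGP8, a near-identical copy of NANOG, was not analysed here at day 2, and reads that fit both copies make the NANOG value uncertain.

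Over all 11475 genes tested at day 2, 23.3% passed an adjusted p of 0.05, 11% lower and 12.3% higher in KO cells. Of the 9 pluripotency genes, 1 passed, which is 11.1%. The libraries of the genotypes did not overlap for 37.7% of all tested genes, and for 1 of the 9. The median log2 fold change of the 9 was 0.01, against -0.00 over all tested genes. NANOG apart, the 95% intervals of the other 8 genes reached no further than 0.16 from 0 on the log2 scale.

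**Figure D1:**
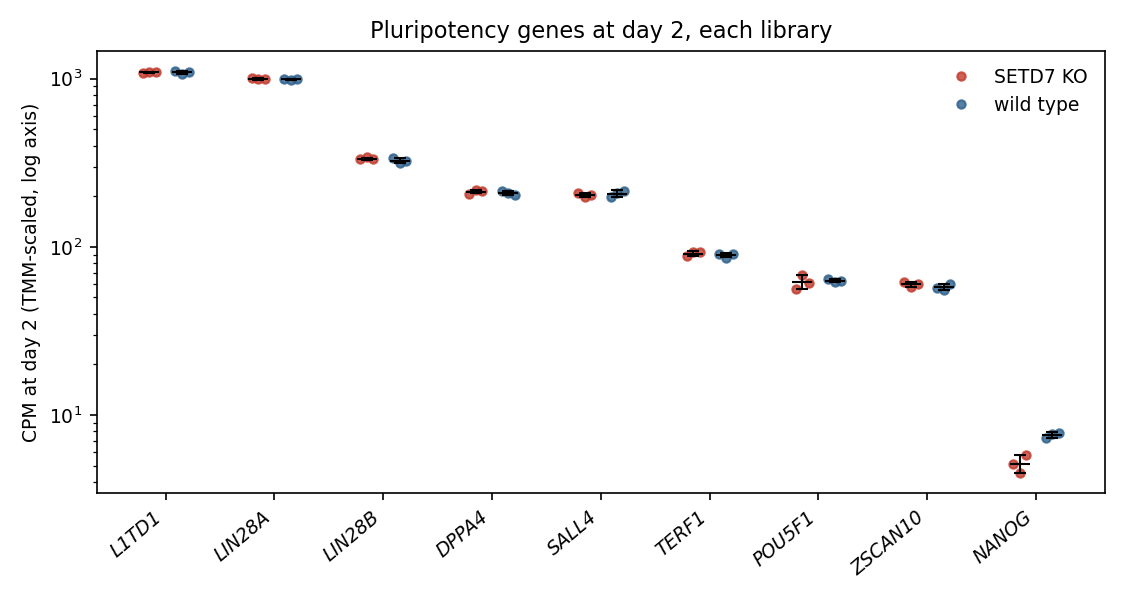
Level of the 9 pluripotency genes measured at day 2, in CPM on a log axis, with KO libraries left of WT libraries; points are libraries, bars are the mean ± SD (n = 3 each). NANOG is the gene whose points do not overlap, at 4.52 to 5.78 CPM in KO cells and 7.27 to 7.86 CPM in WT cells. CPM is not divided by gene length, so heights of different genes cannot be compared.

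POU5F1 (chr6:31164337-31180731, minus strand), the partner of SOX2 at the composite motif, did not differ between the genotypes beyond its error. It stood at 56.3, 68.2 and 61.1 CPM in KO libraries, against 64.2, 61.6 and 62.8 CPM in WT libraries. The KO libraries lay on both sides of the WT libraries, and their coefficient of variation was 9.62%, against 2.02% in WT cells. The log2 fold change was -0.02 (SE 0.055, 95% interval -0.14 to 0.09, edgeR adjusted p = 0.798). POU5F1B, a close copy of POU5F1, stood at 10.1 ± 0.622 CPM in KO cells and 9.61 ± 0.215 CPM in WT cells (SD, n = 3 each, edgeR adjusted p = 0.671). POU5F1 exons also overlap TCF19 on the opposite strand over 248 bases, and whether strand was used in counting is not given in the sources used here.

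LIN28A and LIN28B, the RNA-binding proteins of the let-7 loop, did not differ between the genotypes beyond their error. LIN28A stood at 1017, 999 and 991 CPM in KO libraries, against 992, 986 and 1000 CPM in WT libraries. The ranges overlapped, and the log2 fold change was 0.01 (95% interval -0.05 to 0.07, edgeR adjusted p = 0.785). LIN28B stood at 333, 340 and 331 CPM in KO libraries, against 338, 317 and 323 CPM in WT libraries. Its ranges overlapped as well, with a log2 fold change of 0.04 (95% interval -0.03 to 0.10, edgeR adjusted p = 0.410). LIN28B exons (chr6:104936616-105083332, plus strand) overlap LIN28B-AS1 on the opposite strand over 67 bases.

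L1TD1 (chr1:62194831-62212328, plus strand), an RNA-binding protein derived from a LINE-1 element that is abundant in human pluripotent cells, had the smallest difference of the 9. It stood at 1082, 1100 and 1090 CPM in KO libraries, against 1111, 1069 and 1096 CPM in WT libraries. Its exons hold an annotated small RNA, RF00019, of 110 bases on the same strand. The libraries interleaved, with a log2 fold change of -0.00 (95% interval -0.06 to 0.06, edgeR adjusted p = 0.972). SALL4, a zinc finger factor that recruits the NuRD repressor complex, stood at 208, 198 and 203 CPM in KO libraries, against 197, 209 and 216 CPM in WT libraries. The ranges overlapped, and the log2 fold change was -0.03 (95% interval -0.10 to 0.04, edgeR adjusted p = 0.580). DPPA4, a chromatin protein of pluripotent cells, stood at 208, 217 and 215 CPM in KO libraries, against 215, 209 and 204 CPM in WT libraries. It too overlapped, with a log2 fold change of 0.03 (95% interval -0.04 to 0.09, edgeR adjusted p = 0.640).

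ZSCAN10, a zinc finger factor of embryonic stem cells, had the interval that reached furthest from 0 among the 8 genes that did not pass. It stood at 61.9, 57.9 and 59.8 CPM in KO libraries, against 56.9, 55.4 and 60.0 CPM in WT libraries. The ranges overlapped, and the log2 fold change was 0.06 (95% interval -0.04 to 0.16, edgeR adjusted p = 0.420). TERF1, the shelterin subunit that binds double-stranded telomere repeats, stood at 87.7, 92.8 and 93.1 CPM in KO libraries, against 90.5, 86.1 and 90.6 CPM in WT libraries. Its log2 fold change was 0.03 (95% interval -0.05 to 0.12, edgeR adjusted p = 0.616), and here again the ranges overlapped.

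Divided by exon length, the 9 genes kept 1 order in both genotypes at day 2. L1TD1 and LIN28A led, with 283 and 250 CPM per kilobase in KO cells and 284 and 248 CPM per kilobase in WT cells. LIN28B followed with 55.8 CPM per kilobase in KO cells and 54.3 in WT cells, then DPPA4 with 42.7 in KO cells and 41.9 in WT cells. SALL4, POU5F1, ZSCAN10 and TERF1 came next, between 35.1 and 10.3 CPM per kilobase in KO cells and between 35.9 and 10.1 in WT cells. NANOG was last, with 0.953 ± 0.117 CPM per kilobase in KO cells and 1.42 ± 0.0585 in WT cells (SD, n = 3 each). The libraries of neighbours in this order did not overlap within a genotype. Where the length of the longest transcript was used, DPPA4 stood above LIN28B, TERF1 stood above ZSCAN10, and the KO libraries of POU5F1 and TERF1 overlapped.

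The genes whose profile over the 6 day 2 libraries lay nearest to NANOG, by Euclidean distance of mean-centred log2 CPM, were TP53INP2, TMEM88 and HOXB3, at distances of 0.202, 0.207 and 0.211. TP53INP2 acts in autophagy and transcription, TMEM88 is a membrane inhibitor of Wnt signalling, and HOXB3 is a homeobox factor. For POU5F1 the nearest were ZC3HAV1L, TIMP1 and TIMM21, at 0.0382, 0.0405 and 0.0407. ZC3HAV1L averaged 9.34 CPM in KO cells and 9.31 CPM in WT cells, and none of these 3 passed the test. The distance covers 6 libraries of 1 experiment and says nothing of shared function. HOXB3 exons overlap other HOXB genes, which makes its counts uncertain.

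At day 0, before differentiation, all 10 genes were above 10 FPKM in both genotypes (fragments scaled to gene length and library size, 1 library each, so no difference has a replicate check). L1TD1 and NANOG were the 2 of the 10 that lay past 1.5-fold on the log2(FPKM + 1) scale, both higher in KO cells. Among 13284 genes with at least 1 FPKM in either library, 13.6% lay past that fold, 4.81% higher and 8.77% lower in KO cells. Of the 10 genes, 6 were higher and 4 lower in the KO library.

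L1TD1 stood at 206 FPKM in the KO library and 97.5 FPKM in the WT library, a log2 ratio of 1.07. The size of that ratio was at the 97.6th percentile of all tested genes, whereas the day 2 interval of L1TD1 reached no further than 0.06 from 0. NANOG stood at 22.3 FPKM in the KO library and 13.7 FPKM in the WT library, a log2 ratio of 0.67. This is the opposite direction to day 2. NANOGP8 was listed at 21.6 FPKM in the KO library and 14.8 FPKM in the WT library, close to NANOG in each, so the split of reads between the copies is uncertain. With the FPKM of both copies summed, the log2 ratio was 0.61.

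The other founding factors were lower in the KO library and inside the 1.5-fold limit. POU5F1 stood at 112.6 FPKM in the KO library and 148.9 FPKM in the WT library, a log2 ratio of -0.40. SOX2, a high mobility group factor, stood at 112.9 FPKM in the KO library and 156.8 FPKM in the WT library, a log2 ratio of -0.47. NANOG thus differed in sign from both of its partners at day 0. LIN28A stood at 445 FPKM in the KO library and 473 FPKM in the WT library, and LIN28B stood at 29.3 FPKM in the KO library and 27.7 FPKM in the WT library. SALL4 stood at 56.5 FPKM in the KO library and 58.6 FPKM in the WT library, and DPPA4 at 266 FPKM in the KO library and 226 FPKM in the WT library. For TERF1 the levels were 271 FPKM in the KO library and 239 FPKM in the WT library, and for ZSCAN10 they were 34.2 FPKM in the KO library and 29.8 FPKM in the WT library. These 6 genes had log2 ratios between -0.09 and 0.23, against a median absolute log2 ratio of 0.23 over all tested genes.

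**Figure D2:**
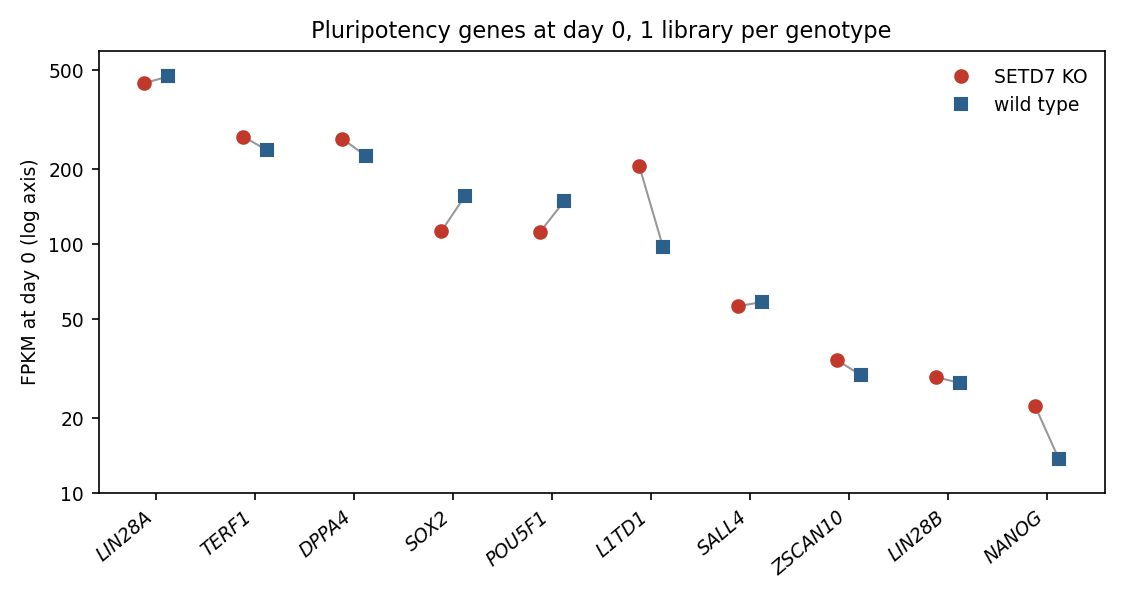
Level of the 10 pluripotency genes at day 0 in FPKM on a log axis, with the KO library (circles) left of the WT library (squares) and 1 library per genotype, so there are no error bars. L1TD1 shows the steepest line, at 206 FPKM in the KO library and 97.5 FPKM in the WT library.

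**Figure D3:**
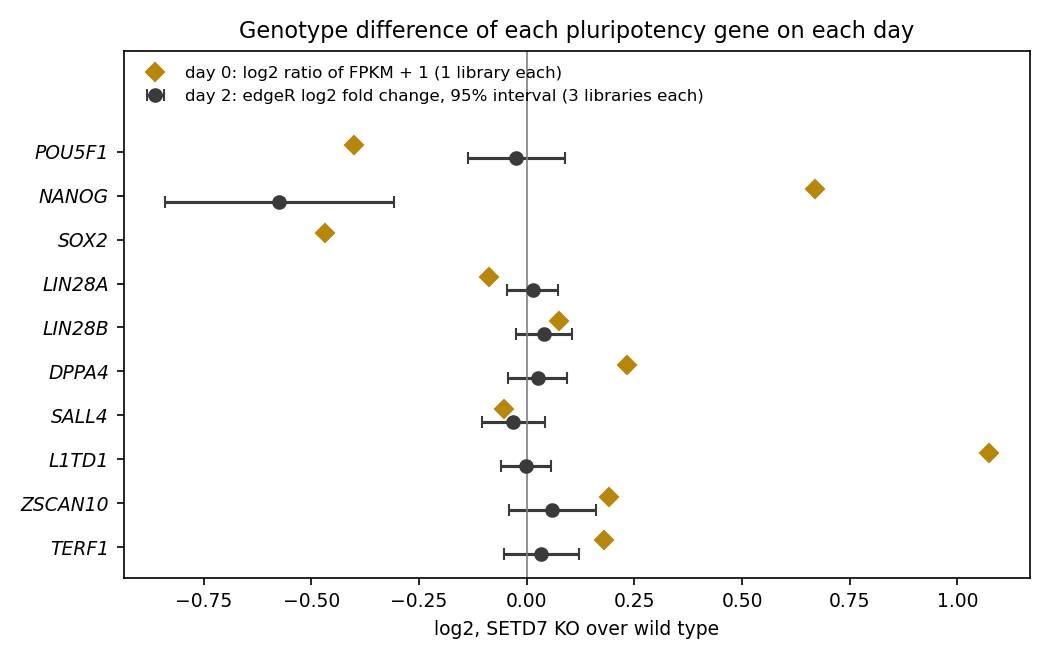
Difference of each gene between the genotypes as log2 of KO over WT: diamonds are day 0 ratios of FPKM + 1 (1 library each), and circles are day 2 fold changes with 95% intervals (3 libraries each; SOX2 has no day 2 point). The day 2 interval of NANOG, -0.84 to -0.31, is the 1 that does not span 0, and its day 0 diamond lies on the other side at 0.67.

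The days were measured in different units, so levels were compared by percentile rank. Each gene was ranked by level per length (100 is the highest) among 11431 genes found in both tables. The days also differ in table and upstream processing, which cannot be told apart from the day in any change of rank. In both genotypes 7 of the 9 genes ranked lower at day 2 than at day 0, against 48.3% of all ranked genes in KO cells and 47.7% in WT cells. The 7 include LIN28A, whose change was near 0, and with no length scaling the count was 5 in KO cells and 6 in WT cells. Most of the 9 ranked near the top at day 0, such as LIN28A at 99.1 and TERF1 at 98.7 in KO cells. Such genes have more room to fall than to rise, so nothing is read from the count. NANOG moved furthest. It ranked at 74.4 at day 0 and 9.83 at day 2 in KO cells, a change of -64.6, and at 59.4 and 16.2 in WT cells, a change of -43.2. Both changes lie beyond the 5th percentile of all genes, which was -38.1 in KO cells and -41.4 in WT cells. NANOGP8, the near-identical copy, had its own value at day 0 and was not analysed here at day 2. Reads shared by the copies make both changes uncertain. The day 2 ranks of NANOG were 9.69, 8.58 and 11.2 in KO libraries, against 15.2, 16.5 and 16.9 in WT libraries, with no overlap. A two-sided exact permutation test of these ranks gave p = 0.1, the smallest that 3 libraries against 3 can give. The ranks of LIN28A and LIN28B did not overlap between the genotypes either, although their CPM ranges did. The share of all genes whose ranks do not overlap was not counted. For CPM that share was 37.7% of all genes tested at day 2. In the permutation test LIN28A and LIN28B gave the same p as NANOG, with KO ranks above WT ranks by 0.08 and 0.42 on average. This test was run for 9 genes and cannot pass a threshold of 0.05 at this size for any of them.

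TERF1 and POU5F1 also ranked lower at day 2. TERF1 ranked at 98.7 at day 0 and 63.3 at day 2 in KO cells, and at 98.5 and 62.6 in WT cells. POU5F1 ranked at 96.2 at day 0 and 81.8 at day 2 in KO cells, and at 97.5 and 82.1 in WT cells. Reads shared with the close copy POU5F1B, and the exon overlap with TCF19, make the POU5F1 ranks uncertain. The size of the drops of TERF1 and POU5F1 depended on the setting. Over 7 other settings of length, filter and libraries, the changes spanned -35.9 to -20.1 for TERF1 and -29.1 to -13.6 for POU5F1 in KO cells, and -36.5 to -20.6 for TERF1 and -30.2 to -15.2 for POU5F1 in WT cells.

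Several members kept or gained rank. LIN28B ranked at 81.1 at day 0 and 94.0 at day 2 in KO cells, and at 80.3 and 93.6 in WT cells, a gain of 12.9 and 13.3. L1TD1 gained 1.08 in KO cells and 3.54 in WT cells, and ended at 99.2 in each. LIN28A stayed at 99.1 on both days in KO cells, and stood at 99.1 and 99.0 in WT cells. The sign of its change depended on the length scaling and, in KO cells, also on the filter. The KO change vanished when KO replicate 2 was left out. DPPA4 changed by -6.79 in KO cells and -6.96 in WT cells, ZSCAN10 by -5.76 in KO cells and -4.79 in WT cells, and SALL4 by -1.68 in KO cells and -2.36 in WT cells, with the KO value of SALL4 turning to 0.31 with no length scaling. The median absolute change over all ranked genes was 11.5 in KO cells and 12.8 in WT cells, and L1TD1, LIN28A, DPPA4 and SALL4 moved by less than that. ZSCAN10 did so with exon lengths, but changed by -18.1 in KO cells and -17.1 in WT cells with no length scaling. L1TD1, LIN28A, DPPA4 and SALL4 ranked high at day 0, the lowest being SALL4 at 91.4 in KO cells and 92.1 in WT cells. Little room was left for a rise in these genes. The day effect had 1 library per genotype at day 0 and was not tested.

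**Figure D4:**
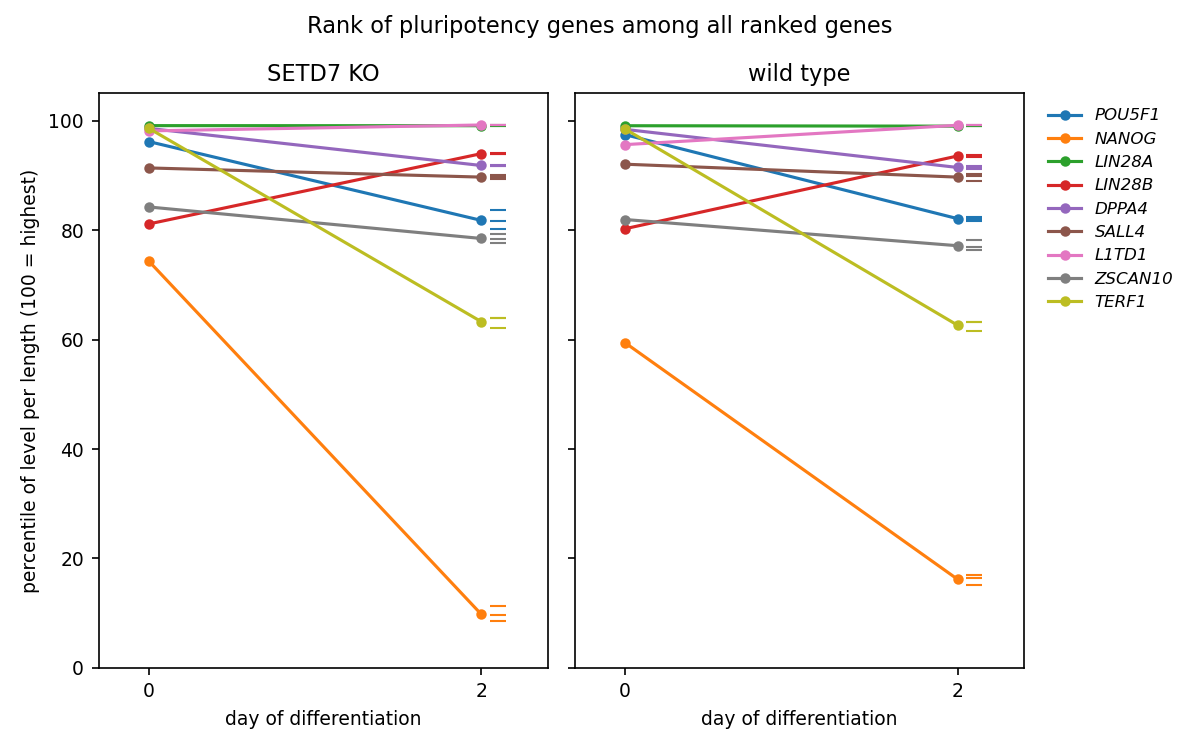
Percentile of level per length at day 0 and day 2 for the 9 genes, KO cells in the left panel and WT cells in the right. Lines join the day 0 library to the mean of the percentiles of 3 day 2 libraries, whose own percentiles are the short dashes. NANOG falls to 9.83 in KO cells, against 16.2 in WT cells, while LIN28A and L1TD1 stay above 95. Reads shared with NANOGP8 make the NANOG ranks uncertain.

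Other genes of the pluripotency network gave a mixed picture at day 2. Of 38 symbols listed, 27 were tested, 6 were higher in KO cells, 6 were lower and 15 did not pass. Over all genes tested at day 2, 23.3% passed. The median log2 fold change of the 27 was 0.03. The genes of Nodal signalling, which sustains NANOG in human embryonic stem cells, stood on both sides. NODAL, the ligand, averaged 6.52 ± 0.825 CPM in KO cells and 8.98 ± 0.690 CPM in WT cells (log2 fold change -0.46, edgeR adjusted p = 0.00548). The secreted Nodal inhibitors LEFTY1 and LEFTY2 were also lower, with log2 fold changes of -0.38 (edgeR adjusted p = 0.00474) and -0.46 (edgeR adjusted p = 0.000208). GDF3, a related ligand, was higher, at 16.1 ± 1.70 CPM in KO cells and 10.2 ± 2.50 CPM in WT cells (log2 fold change 0.67, edgeR adjusted p = 0.00702). The Nodal co-receptor TDGF1 was higher by 0.13 on the log2 scale (edgeR adjusted p = 0.00251). NODAL, LEFTY1, LEFTY2 and TDGF1 have exons that overlap other annotated genes, which makes their counts uncertain.

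Outside Nodal signalling, PODXL, a surface sialomucin of stem cells, was lower (122 ± 1.84 CPM in KO cells and 157 ± 6.31 CPM in WT cells, log2 fold change -0.36, edgeR adjusted p = 5.94e-09). EPCAM and ETV5 were lower, with log2 fold changes of -0.25 and -0.19. Higher in KO cells were DNMT3B, the de novo DNA methyltransferase, PHC1, a Polycomb subunit, and the zinc finger factor ZIC2, with log2 fold changes between 0.13 and 0.19. PHC1 and ETV5 share exon bases with other annotated genes, so their counts are uncertain. TERT, the catalytic subunit of telomerase, was higher by 0.34 at 8.84 ± 0.624 CPM in KO cells and 6.99 ± 1.08 CPM in WT cells (edgeR adjusted p = 0.0404).

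At day 0 the same list of 38 had 30 tested genes, with 6 past 1.5-fold higher and 4 past 1.5-fold lower in the KO library. Over all genes with at least 1 FPKM in either library, 4.81% lay past that fold higher and 8.77% lower. The median log2 ratio of the 30 was 0.34. NODAL, LEFTY1, LEFTY2 and GDF3 were among the 6 higher ones. LEFTY1 was listed at 11.8 FPKM in the KO library and 0.0311 FPKM in the WT library, NODAL at 5.25 FPKM in the KO library and 1.13 FPKM in the WT library, and LEFTY2 at 3.46 FPKM in the KO library and 1.41 FPKM in the WT library. GDF3 stood at 9.76 FPKM in the KO library and 2.08 FPKM in the WT library. NANOG, NODAL, LEFTY1 and LEFTY2 were thus higher in the KO library at day 0 and lower in KO cells at day 2, while GDF3 was higher on both days. EPCAM and ETV5 had the same directions as NANOG, but lay inside the 1.5-fold limit at day 0 (log2 ratios of 0.40 and 0.16). DNMT3B and ETV4 were the others past the fold and higher. MYC, a growth regulator, was listed at 2.45 FPKM in the KO library and 15 FPKM in the WT library, and OTX2, ZIC2 and FGF2 were the others past the fold and lower. At day 2 MYC did not differ beyond its error (107 ± 5.09 CPM in KO cells and 108 ± 5.31 CPM in WT cells, edgeR adjusted p = 0.887).

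**Figure D5:**
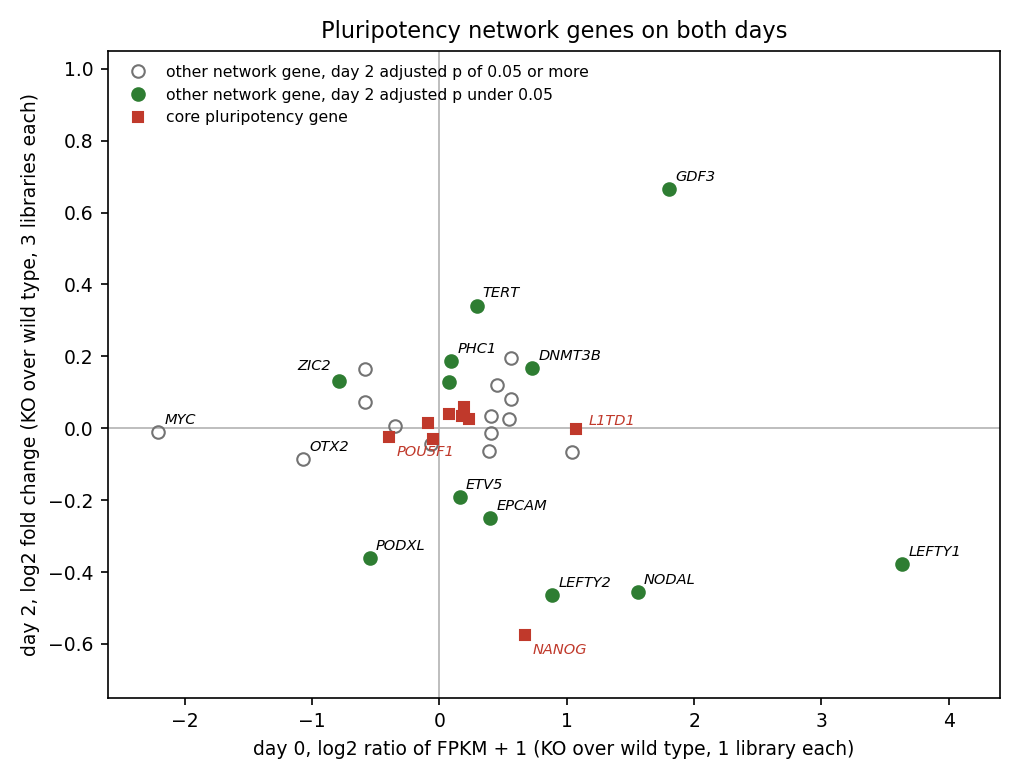
Difference between the genotypes on both days for the core genes (squares) and other network genes (circles, filled where the day 2 adjusted p was under 0.05): the horizontal axis is the day 0 log2 ratio of FPKM + 1 and the vertical axis the day 2 log2 fold change, both KO over WT. NANOG lies at 0.67 and -0.57. The same quadrant holds NODAL, LEFTY1, LEFTY2, EPCAM and ETV5, which passed at day 2, and ETV4, CD9, ZFP42 and L1TD1, which did not.

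Genes of the naive state, an earlier form of pluripotency, had 10 of 20 listed symbols tested at day 2, with a median log2 fold change of -0.03. None was higher and 2 were lower, where 23.3% of all tested genes passed in either direction. The lower ones were TFAP2C, an AP-2 factor (2.72 ± 0.408 CPM in KO cells and 6.06 ± 0.832 CPM in WT cells, log2 fold change -1.15, edgeR adjusted p = 2.81e-06), and TBX3, a T-box factor also of mesoderm (log2 fold change -0.17, edgeR adjusted p = 0.000242). At day 0 none of 7 tested genes lay past 1.5-fold, against 13.6% of all tested genes.

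Of 32 symbols listed around LIN28 and let-7, 30 were tested at day 2, with a median log2 fold change of 0.01. Of the 30, 6 were higher and 3 lower in KO cells, where 23.3% of all tested genes passed in either direction. The higher ones were the mRNA-binding proteins IGF2BP3 (0.24) and IGF2BP2 (0.15), the cell cycle kinase CDK6 (0.21), the D-type cyclins CCND1 (0.18) and CCND2 (0.17), and ARID3A (0.10), all as log2 fold changes. The lower ones were the chromatin proteins HMGA2 (-0.16) and HMGA1 (-0.09) and the helicase DHX9 (-0.12). IGF2BP3, CDK6, CCND1, CCND2, ARID3A and HMGA2 have exons that overlap other annotated genes, which makes these counts uncertain. Of 30 such genes with an annotated 3′ untranslated region, 15 held at least 1 seed match, against 12.4% of all tested genes with such a region. The list was drawn up around let-7, so nothing is read from the difference. TUT4 and TUT7, the uridylyl transferases that LIN28A recruits to let-7 precursors, were measured under their older symbols ZCCHC11 and ZCCHC6. The 32 symbols hold both names of each. ZCCHC11 stood at 194, 187 and 195 CPM in KO libraries, against 192, 202 and 182 CPM in WT libraries, and the ranges overlapped.

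Around TERF1, 15 shelterin and telomerase genes were tested at day 2, with TERT higher (above), NOP10 lower (log2 fold change -0.13, edgeR adjusted p = 0.0327) and a median of -0.00. Over all tested genes 23.3% passed, which is also the share to set beside the counts that follow. Of 15 subunits of NuRD, the repressor complex that SALL4 recruits, 2 were higher and 3 lower, with a median of -0.01. They were ZMYND8 (0.23) and MTA1 (0.14), against RBBP4 (-0.15), CHD3 (-0.17) and MBD3 (-0.12), as log2 fold changes. A wider list of POU, SOX, SALL, ZSCAN and cold-shock genes, in which LIN7C is no relative of the LIN28 genes despite its name, had 25 of 34 tested. SOX4 (0.35), ZSCAN18 (0.24) and SALL1 (0.16) were higher, and SALL2 (-0.15) and YBX1 (-0.12) were lower, with a median of 0.02. ZMYND8, MTA1, RBBP4, MBD3, SOX4, ZSCAN18 and SALL2 share exon bases with other annotated genes, so their counts are uncertain too.

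Markers of other cells moved between the genotypes at day 2 as well. Over all genes tested at day 2, 23.3% passed, the share to set beside the count of each marker list. Primitive streak and mesoderm markers had 12 of 13 listed symbols tested (T is also listed as TBXT), 5 higher and 3 lower in KO cells. The higher ones were PDGFRA (0.26), GSC (0.25), MESP2 (0.24), KDR (0.12) and MIXL1 (0.10), as log2 fold changes. The lower ones were FOXF1 (-0.37), T (-0.26) and HAND1 (-0.17). PDGFRA exons overlap another annotated gene, which makes its counts uncertain. The summed level of the list was 4592 to 4627 CPM in KO libraries and 4453 to 4536 CPM in WT libraries. That sum rests mostly on MIXL1, EOMES and KDR, and EOMES did not pass. The ranks of these markers rose between the days in all 12 in WT cells, and their median change in KO cells was 89.2. Over all ranked genes, 47.7% ranked lower at day 2 in WT cells. Most of the 12 ranked near the bottom at day 0, such as EOMES at 0.87 and HAND1 at 0.14 in WT cells. With little room to fall, a rise was nearly fixed in advance, and nothing is read from the count. MIXL1, EOMES and KDR had the highest CPM of the list, a scale not divided by length. Endoderm markers had 4 of 7 tested, with SOX17 lower (102 ± 3.30 CPM in KO cells and 151 ± 3.30 CPM in WT cells) and sums of 856 to 875 CPM in KO libraries and 923 to 942 CPM in WT libraries. Fibroblast markers had 5 of 8 tested, 3 higher and 1 lower. COL1A2 (0.55), POSTN (0.30) and COL1A1 (0.29) were higher, and LUM (-0.57) was lower, as log2 fold changes. The sums were 499 to 523 CPM in KO libraries and 365 to 384 CPM in WT libraries, mostly COL1A2. Amnion and trophoblast markers had 4 of 8 tested, 2 lower (GATA3 and ISL1), with sums of 63.8 to 66.7 CPM in KO libraries and 72.8 to 73.7 CPM in WT libraries. NES was the 1 neural marker of 7 tested and was higher in KO cells, and RUNX1 was the 1 blood and endothelial marker of 8 tested and did not pass.

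Markers of the pluripotent state itself had 9 of 10 tested, with TDGF1 higher and NANOG and PODXL lower in KO cells. Their sums overlapped, at 3602 to 3667 CPM in KO libraries and 3560 to 3632 CPM in WT libraries, and rest mostly on LIN28A and L1TD1. At day 0 the mesoderm markers other than KDR, and the endoderm and blood markers, were at or below 3.97 FPKM in both libraries, with FOXF1 listed at 0 in the KO library and HAND1 and FOXA2 listed at 0 in the WT library. KDR stood at 69.8 FPKM in the KO library and 55.8 FPKM in the WT library, and fibroblast markers summed to 165 FPKM in the KO library and 178 FPKM in the WT library. These sums hide opposite directions. COL1A1 stood at 34.1 FPKM in the KO library and 55.0 FPKM in the WT library, and COL1A2 at 28.8 and 43.4 FPKM. Both were higher in KO cells at day 2. THY1, the largest part of both sums, stood at 97.7 FPKM in the KO library and 73.3 FPKM in the WT library. The part of these markers in the NANOG difference was not tested.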

How the data were processed

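Bulk RNA-seq of 8 libraries was analysed. Per the submitters' processing notes, HISAT2, StringTie and GRCh38 were used, with no roles stated; no source used here gives the counter, filters or strand setting. The day 2 table holds whole-number read counts per gene as deposited by the authors, and the day 0 table holds FPKM values as deposited. Of the per-sample columns, 1 without a header was not used. Counts were tested with edgeR 4.0.16 (quasi-likelihood, robust, TMM scaling, filterByExpr, genotype as the only term; R 4.3.3), with Benjamini-Hochberg adjustment over 11475 genes and a threshold of 0.05. The test was checked on simulated data. CPM uses the TMM-scaled library size. Day 0 ratios are log2(FPKM + 1) differences, which understate the change of low genes, over genes with at least 1 FPKM in either library, with no test. Ranks used the union exon length of GENCODE 29. Alternatives were DESeq2 1.42.0, limma 3.58.1 (voom), other scalings, filters, pseudocounts and lengths, a replicate block, and each library left out. No 2 day 2 libraries were alike within counting noise (chi-square per degree of freedom of 3.04 or more). For let-7 sites, the coding transcript with most matches was used per gene, a choice made after seeing the data. The members, gene lists and tests were chosen with earlier results of these data known. Named genes were the 10 members, SETD7, the genes of each list that passed at day 2, the leading markers, and the 3 nearest profiles of NANOG and POU5F1. Other list genes, copies and markers, such as MYC, ETV4, OTX2, FGF2 and ZCCHC11, were named after their values were seen. A few listed genes are not reported here and were left out of the list counts.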

Additional observations from a re-analysis of the deposited data

Results flagged for a closer look

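Genes that passed the test at day 2 with all KO libraries on one side of the WT libraries, and whose day 0 libraries lay past 1.5-fold on the other side, numbered 9 of 118 members and pathway list genes tested on both days, or 7.63%. Over all 10994 genes tested on both days, 234 met the same rule, or 2.13%; the lists were chosen with earlier results known, so nothing is read from the difference. The difference between the days was not tested, since day 0 had 1 library per genotype. Higher in the KO library at day 0 and lower in KO cells at day 2 were NANOG (log2 ratio 0.67 at day 0 and log2 fold change -0.57 at day 2), NODAL (1.56 and -0.46), LEFTY1 (3.64 and -0.38), LEFTY2 (0.89 and -0.46) and DHX9 (0.77 and -0.12). Lower at day 0 and higher at day 2 were ZIC2 (-0.79 and 0.13), IGF2BP3 (-0.76 and 0.24), CDK6 (-0.81 and 0.21) and SALL1 (-0.79 and 0.16). The days also differ in table, unit and upstream processing, which cannot be told apart from the day.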

How the results depend on the processing

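NANOG was the called member, and the only one, in each of 13 alternative fits of the day 2 counts, with log2 fold changes of -0.66 to -0.49 and adjusted p of 0.000788 to 0.0104. SETD7 stayed below WT in the same 13, at -0.84 to -0.74. Genes called in all numbered 2668, against 2371 by DESeq2, 2641 by limma-voom and 2005 to 2509 with 1 library left out. Upper-quartile scaling moved the split of calls to 1605 higher and 1010 lower, against 1406 and 1262. Uncalled members near 0 changed sign: POU5F1 was 0.045 without KO replicate 1 and ranged between -0.10 and 0.045 over single libraries left out. L1TD1 was 0.014 with upper-quartile scaling and ranged between -0.017 and 0.011 over single libraries left out, against -0.0019 with all libraries. With a pseudocount of 5 FPKM, 1 member instead of 2 lay past 1.5-fold at day 0, since NANOG came to 0.55. The replicate numbers did not pair the libraries (correlations of -0.07, -0.08 and -0.04 between same-numbered libraries). A fit with the replicate block called 2210 genes, NANOG among them. With the longest 3′ untranslated region per gene, 11.4% of genes, 14 of 30 genes of the LIN28 list and the same number of members, 3, held a let-7 seed match. With POU5F1B added, POU5F1 stayed uncalled. These last alternatives and the sums with close copies were chosen after seeing the data. NANOG rests on 158 to 249 counts per library, and day 0 on 1 library per genotype, which limits both.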
